A study of Mus musculus with 8 samples.

Results

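In the testes of Brwd1 mutant mice 29 genes gave readings that parted, in that 1 probe set of the gene read far lower than in wild type and another hardly differed. A probe set is a group of short probes on the array that read 1 stretch of a transcript, and a gene can be read by several. The 29 were chosen by a rule on measured values. Every value was taken as log2(intensity + 16), and probe sets with 1 gene symbol and a mean above 7.5 over all 8 arrays were kept. A gene was a member if the mean of the mutants minus the mean of the wild types was -1.5 or lower for 1 of its kept probe sets and between -0.4 and 0.4 for another. These are called the falling and the stable probe set here. The rule used the genotype difference, so that difference is described for the members and not tested. Of 11120 genes with a kept probe set, 4030 had 2 or more, and 29 of these (0.72%) were members, with 73 kept probe sets of the 17158 kept in all.

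Spermatids, the haploid germ cells that follow meiosis, are known for transcripts that differ from those of other cells. A gene can start from another promoter in them, join its exons in another way or end at another polyadenylation site, and the angiotensin converting enzyme gene Ace is a textbook case with a promoter of its own in these cells. Probe sets placed on different parts of such a gene can then read different transcript forms, so each member is described as a candidate for a spermatid form beside a form of other cells. The arrays do not resolve transcripts, and whether 2 forms exist was not measured for any member. Some of the stable probe sets nearest to 0 lay just above the limit on the mean. Those of Cdv3, Plpp6, Samd4, Lrrc57 and Nol4 had means of 7.58, 7.68, 7.71, 7.72 and 7.74. The brightest, that of Abhd2, had 10.82. Further stable probe sets of Gpd2 and Atl3, not the nearest to 0, lay closer still to the limit at 7.52 and 7.54. With the limit raised to 8.5, 15 of the 29 genes were still members. Whether a dim stable probe set reads a transcript of its gene at all was not tested.

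The samples were whole testes of mice aged 27 days, and each of 8 untreated mice gave 1 array. The 4 mutants are labelled Brwd1-/-, Brwd1 being a protein with bromodomains and WD repeats. The 4 controls are wild type in their titles, while their genotype entry reads Brwd1+/-, so each control may hold 1 mutant copy. The name wild type is kept for them. The nature of the mutation is not given in the labels, and neither is the strain. At this age spermatids are partway through their development, per the design text, and the comparison asks which spermatid transcripts differ.

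Brwd1 had 3 kept probe sets with log2 differences of -0.28, -0.04 and 0.31, and limma called none of them (adjusted p from 0.861 to 0.998, and from 0.471 to 0.935 with the replicate number as a block). All 6 spermatid markers used to check the tissue had a mean above the limit on kept probe sets, and their summed intensity was 60082 to 103466 in wild type and 2666 to 19231 in mutants, lowest in mutant replicate 1. The 6 markers of pachytene spermatocytes also all did, with sums of 45663 to 50279 in wild type and 44515 to 49289 in mutants. The 6 Sertoli cell markers summed to 23146 to 25683 in wild type and 25389 to 31376 in mutants. Bright markers led these sums. Prm1, Prm2, Tnp1 and Tnp2 had log2 differences from -4.26 to -3.28, while Acrv1 had -1.34 and Spaca1 -0.89. Among pachytene markers Ldhc alone gave 19634 to 28891 in wild type and 22405 to 25561 in mutants. Among Sertoli markers Clu alone gave 20109 to 22267 in wild type and 22530 to 27067 in mutants. Of 10 markers of the epididymis, the duct beside the testis, 7 were on the array, and they summed to 194.4 to 369.6 in replicates 1 and 2 of both genotypes and to 42740 to 51976 in replicates 3 and 4. In bulk tissue fewer cells of a type and less RNA per cell cannot be told apart, which holds for every difference given here.

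Readings of this kind ran in 1 direction. Among the 4030 genes, 58 had a kept probe set that was lower by 1.5 or more, and in 15 of these every kept probe set was that low. In 29, the members, a stable probe set stood beside it, and in the other 14 the remaining probe sets lay between the limits. None of the 58 had a probe set above 0.4, and none of the 4030 had a probe set that was higher by 1.5 or more. Over all kept probe sets 303 (1.77%) were lower by 1.5 or more and 15337 (89.4%) lay between -0.4 and 0.4, with a median difference of 0.07. The 73 member probe sets were 31 falling, 37 stable and 5 between the limits. In 16 members 2 probe sets were kept, in 12 members 3, and in Clip4 5. Another 23 probe sets of 16 members lay under the limit on the mean and were not used. The 5 probe sets between the limits belonged to Clip4, which held 3 of them, and to Cep112 and Arhgef2.

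The falling probe sets (the lowest of each gene) had a median log2 difference of -1.84, from -2.60 in Otub2 to -1.53 in Zfyve1, which is 6.05-fold to 2.89-fold lower. The stable probe sets (the nearest to 0 of each gene) had a median of 0.03, from -0.33 to 0.30. Falling minus stable, called the gap, had a median of -1.83 and ran from -2.37 to -1.49, against a median spread of 0.16 between the kept probe sets of 1 gene over all 4030 genes. The rule fixes a gap of this order, so the comparison shows its size only. All 4 mutants lay below all 4 wild types in 27 of the 29 falling probe sets, where 4.25% of all kept probe sets did, and the rule favours that count. The exceptions were Nol4 and Zfyve1. Of the 29 stable probe sets, 1 (Zfyve1) had no overlap, with every mutant above every wild type, as 2.55% of all kept probe sets had. Zfyve1 and Tle3 lay just inside the fall limit at -1.53 and -1.57, and Tor1aip1 and Cpeb3 just outside at -1.49 and -1.44. Otub2 and Akap1 lay just inside the stable limit, each at -0.33, and Trim17 and Tnp1 just outside at -0.49 and -0.67.

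**Figure D1:**
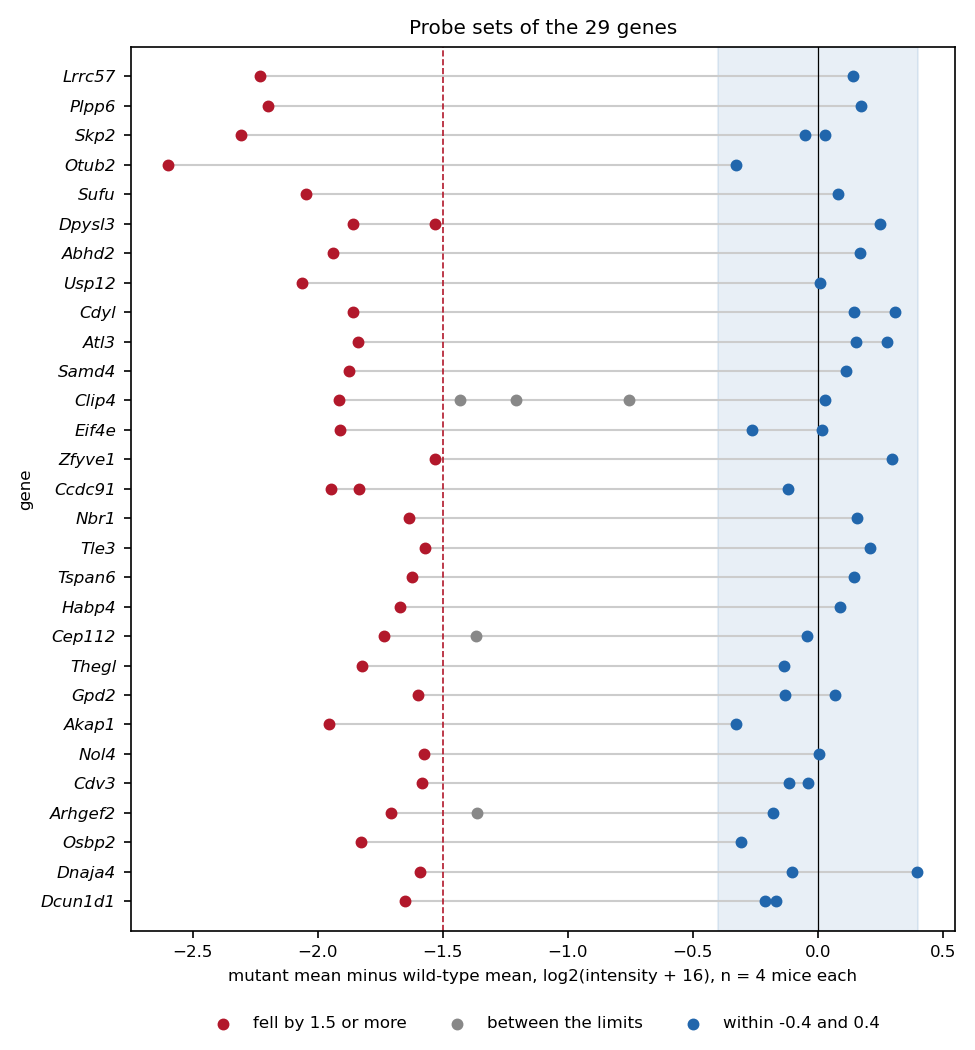
Every kept probe set of the 29 genes is a point at its mutant mean minus wild-type mean on the log2(intensity + 16) scale, 4 mice per genotype, with genes ordered by gap. Red points fell by 1.5 or more, blue points lie within the shaded band from -0.4 to 0.4, and the 5 grey points lie between, 3 of them in Clip4.

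The genes were then set against the transcription start sites that RefSeq lists for them (assembly GRCm38.p6). From the table of starts 27 of the 29 members were used, with 55 starts. Dpysl3 and Nol4, the members on chromosome 18, were left out by chromosome. The sets they are compared with were not limited in this way. Of the 27, 18 had more than 1 start and 12 (44.4%) had starts 1000 bases or more apart. Of the 3295 genes in the table with 2 or more kept probe sets, 389 (11.8%) had starts that far apart. Of the 29 genes with a falling but no stable probe set, 23 were in the table, and 4 of them (17.4%) had such starts. The 12 members were Skp2, Otub2, Cdyl, Samd4, Clip4, Eif4e, Zfyve1, Cep112, Akap1, Arhgef2, Osbp2 and Dcun1d1. These shares are descriptions with no test, and the files do not tell which start belongs to the transcript that a probe set reads.

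The separate starts of a member often differed in their content of CG, the dinucleotide that is dense in the promoters of many broadly expressed genes. In windows from 250 bases before a start to 50 after it, the median over all 32851 starts was 7 CG. In 9 of the 27 members (33.3%) 1 start had 7 or fewer and another 20 or more, against 192 of 3295 genes (5.83%) and 0 of the 23 genes with a falling and no stable probe set. Both limits were chosen after the values were seen. The CG counts were 0 and 23 in Skp2, 3, 34 and 32 in Cdyl, 27 and 6 in Samd4, 27, 32 and 2 in Osbp2, and 40, 4 and 5 in Akap1, from the most upstream start to the most downstream. In Otub2 they were 3 and 13, and the starts of Clip4 had 2 to 4 each.

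Sequences are shown for Skp2, Cdyl, Samd4 and Otub2, chosen among the members with the widest gaps because their distant starts differ in CG. The starts of Otub2 do not reach both limits, and Akap1, Arhgef2 and Dcun1d1, with narrower gaps, had larger contrasts in CG. Each line gives the 120 bases before a start, 5′ to 3′ on the strand of the gene, from RefSeq, with every CG in capitals. The starts of Skp2 lie 14971 bases apart on the minus strand, at chr15:9155426-9155545 and chr15:9140455-9140574. The others lie on the plus strand, those of Cdyl 81540 bases apart at chr13:35659742-35659861 and chr13:35741282-35741401, those of Samd4 186012 bases apart at chr14:46882845-46882964 and chr14:47068857-47068976, and those of Otub2 11787 bases apart at chr12:103376774-103376893 and chr12:103388561-103388680.
Skp2, upstream start: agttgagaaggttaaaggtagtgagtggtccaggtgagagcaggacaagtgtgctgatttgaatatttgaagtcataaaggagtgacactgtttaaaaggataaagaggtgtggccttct
Skp2, downstream start: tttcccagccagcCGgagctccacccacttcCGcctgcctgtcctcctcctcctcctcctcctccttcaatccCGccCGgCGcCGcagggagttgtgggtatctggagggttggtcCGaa
Cdyl, upstream start: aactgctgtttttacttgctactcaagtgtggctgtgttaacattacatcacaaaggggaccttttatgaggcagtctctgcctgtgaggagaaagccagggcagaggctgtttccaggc
Cdyl, downstream start: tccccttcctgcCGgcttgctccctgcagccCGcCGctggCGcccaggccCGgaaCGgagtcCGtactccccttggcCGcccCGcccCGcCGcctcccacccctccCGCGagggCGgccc
Samd4, upstream start: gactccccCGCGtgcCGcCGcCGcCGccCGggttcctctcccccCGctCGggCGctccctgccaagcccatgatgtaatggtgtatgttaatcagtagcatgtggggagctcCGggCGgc
Samd4, downstream start: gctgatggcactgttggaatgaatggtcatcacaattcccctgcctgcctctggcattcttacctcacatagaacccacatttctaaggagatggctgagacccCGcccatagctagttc
Otub2, upstream start: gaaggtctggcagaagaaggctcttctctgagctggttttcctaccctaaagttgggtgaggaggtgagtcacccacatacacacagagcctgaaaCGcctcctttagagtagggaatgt
Otub2, downstream start: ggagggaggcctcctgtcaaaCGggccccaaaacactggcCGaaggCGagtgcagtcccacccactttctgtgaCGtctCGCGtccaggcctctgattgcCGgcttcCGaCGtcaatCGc
In these 4 genes the CG-poor start lay upstream in Skp2, Cdyl and Otub2 and downstream in Samd4. Over the 9 members with starts on both sides of the limits, the most upstream start had 20 CG or more in 6 and 7 or fewer in 3, Skp2, Cdyl and Arhgef2. The motif TGACGTCA, to which the spermatid regulator CREM binds, was searched on both strands of the same windows. It was in 1 of the 55 member starts (1.82%), that of Habp4, and in 588 of all 32851 (1.79%). The motif TATAAA, again on either strand, was in 0 of the 55 and in 4473 of all (13.6%). The 2 sets of starts are unlike, with a median of 20 CG in the member starts and 7 in all. Some member windows also share most of their bases with another of the same gene. The motifs cannot overlap each other, and a match or its absence says only what letters stand in the window.

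**Figure D2:**
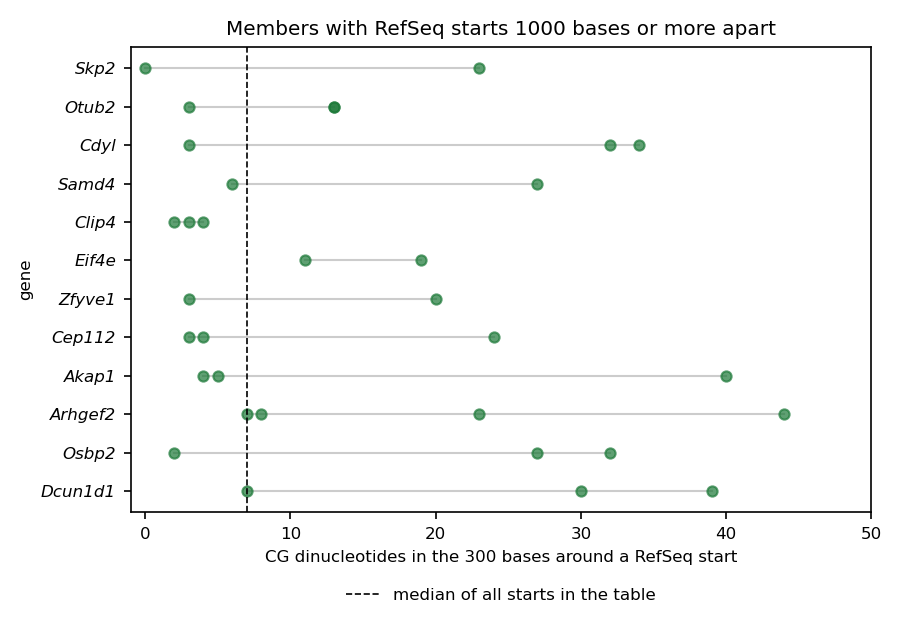
Each point is a RefSeq start of 1 of the 12 members with starts 1000 bases or more apart, placed by the number of CG dinucleotides in the window from 250 bases before to 50 bases after it; the dashed line is the median of all starts, 7. In Skp2, Cdyl, Samd4, Zfyve1, Cep112, Akap1, Arhgef2, Osbp2 and Dcun1d1 a start at or left of the line stands beside one with 20 or more.

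The members are taken by the role of their proteins, a grouping made after they were known. The ubiquitin system, which marks proteins for removal or frees them from the mark, held Otub2, Usp12, Skp2 and Dcun1d1. Otub2, a deubiquitinase, had the lowest falling probe set of all members. That probe set read 4666.4, 6892.2, 5089 and 2724.9 in wild-type replicates 1 to 4 and 158.8, 1519, 940.1 and 1297.2 in mutant replicates 1 to 4. Every mutant lay below every wild type, mutant replicate 1 far below the rest, and the log2 difference was -2.60, or -1.89 without that mouse. The stable probe set of Otub2 read 617.4, 806.7, 778.3 and 534.9 in wild type and 309.3, 687.3, 628.8 and 607.5 in mutants. There the groups overlapped, with mutant replicate 1 again the lowest, and the difference of -0.33 was -0.07 without it.

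Usp12, a deubiquitinase as well, read 612.7, 1034.2, 563.8 and 491.4 in wild type and 54.5, 186.4, 188.4 and 202.4 in mutants on its falling probe set, a log2 difference of -2.06. The groups did not overlap, and mutant replicates 2 to 4 lay close together. Its stable probe set read 475.3, 408, 401.7 and 512.4 in wild type and 511.3, 347, 493.4 and 468.9 in mutants, a difference of 0.01 with full overlap. Skp2 is the F-box protein that picks substrates for an SCF ubiquitin ligase. Its falling probe set read 881.6, 1557.8, 910.7 and 446.5 in wild type and 84.8, 223, 140.6 and 250.7 in mutants, a log2 difference of -2.31. Wild-type replicate 2 stood highest and mutant replicate 1 lowest, without overlap. Both other probe sets of Skp2 were stable, at -0.05 and 0.03, and the one nearest to 0 read 241.4, 192.8, 203.5 and 252.1 in wild type and 229.8, 232.7, 206.5 and 235.8 in mutants. Dcun1d1, which helps to attach Nedd8 to cullins, had the narrowest gap of all members, -1.49. The falling probe set of Dcun1d1 went from 2105 ± 457 to 719 ± 337 (SD, n = 4 each; log2 difference -1.65), and its stable ones had differences of -0.17 and -0.21.

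Among members that act on protein quality, Nbr1 is a receptor of selective autophagy and Dnaja4 a co-chaperone of the Hsp40 family. The falling probe set of Nbr1 went from 1924 ± 523 to 619 ± 194 (SD, n = 4 each; log2 difference -1.63), and its stable probe set from 1370.1 ± 265 to 1539 ± 363, a difference of 0.16. For Dnaja4 the falling probe set went from 2849.7 ± 856 to 986 ± 438 (SD, n = 4 each; log2 difference -1.59). One of its stable probe sets stood at -0.10 and the other, the highest stable value of all, at 0.40, which was 0.64 without mutant replicate 1. In both genes the falling probe set showed no overlap between genotypes and every stable one overlapped.

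Members that handle RNA and translation were Samd4, Eif4e and Habp4. Samd4 encodes Smaug, a repressor of translation. For Samd4 the falling probe set read 4809.7, 5694.4, 4890.6 and 3255.8 in wild type and 393, 2080.6, 1391.9 and 2013.5 in mutants, a log2 difference of -1.87 without overlap. The stable probe set read 217, 104.7, 201 and 250.9 in wild type and 146, 139.3, 277.6 and 286.9 in mutants, a difference of 0.11. Mutant replicates 3 and 4 were the highest mice on the stable probe set and wild-type replicate 2 the lowest. Eif4e encodes the protein that binds the cap of mRNA. One probe set of Eif4e went from 638 ± 233 to 157 ± 62.8 (SD, n = 4 each; log2 difference -1.91), while its 2 stable probe sets stood at 0.02 and -0.26. The latter was the brightest of the gene, 6726 ± 346 and 5617 ± 527, and its groups did not overlap either, so that it was lower in every mutant by a smaller step. Habp4, a protein that binds hyaluronan and RNA, had a falling probe set that went from 793 ± 317 to 235 ± 78.3 (SD, n = 4 each; log2 difference -1.67), and a stable one at 0.09.

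Lipid and membrane proteins made up the largest group, with Abhd2, Plpp6, Osbp2, Atl3, Ccdc91, Zfyve1 and Tspan6. Abhd2 is a lipid hydrolase that sperm use in their response to progesterone. Its falling probe set read 1516.3, 2069, 1637.6 and 926.6 in wild type and 135.3, 659.2, 381.5 and 552.1 in mutants, a log2 difference of -1.94. The groups did not overlap, with wild-type replicate 4 the lowest of its group. Its stable probe set read 1440, 1281.9, 2248.9 and 1964.5 in wild type and 1718.5, 1359.9, 2473.6 and 2253.4 in mutants, a difference of 0.17, and here replicates 3 and 4 stood above replicates 1 and 2 in both genotypes. Plpp6 is a phosphatase of lipid phosphates. The falling probe set of Plpp6 read 733.9, 941.1, 744.8 and 409.4 in wild type and 113.1, 141.5, 128.1 and 163 in mutants, a difference of -2.20, and the 4 mutants lay close together. Its stable probe set read 125.5, 114.4, 239 and 280.3 in wild type and 129.2, 130.9, 313.2 and 303.9 in mutants, a difference of 0.17. It parted the mice by replicate number instead of genotype, replicates 1 and 2 at the bottom and 3 and 4 at the top.

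Atl3 is an atlastin, a GTPase that shapes the endoplasmic reticulum. The falling probe set of Atl3 read 2461.3, 3635, 2627 and 1659 in wild type and 280.3, 983.7, 783.4 and 1021 in mutants, a log2 difference of -1.84 without overlap. The stable probe set nearest to 0 read 431.7, 322, 494.8 and 671.6 in wild type and 437.1, 406.5, 658.6 and 611.1 in mutants, a difference of 0.15, and a further stable one stood at 0.28. Both stable probe sets of Atl3 overlapped between genotypes. Ccdc91, a partner of the GGA adaptors of vesicle traffic, had 2 falling probe sets, at -1.95 and -1.83, beside a stable one at -0.12 that went from 650.5 ± 56.1 to 597 ± 55.9 (SD, n = 4 each). Osbp2 binds oxysterols, and its falling probe set went from 942 ± 425 to 247 ± 113 (SD, n = 4 each; log2 difference -1.83). Its stable probe set, the brighter one, stood at -0.31. Zfyve1, with a FYVE domain that binds a membrane lipid, had falling values that overlapped, since mutant replicate 2 read 444.6 and wild-type replicate 4 read 432.3. That falling probe set went from 770.0 ± 258 to 259.9 ± 124 (SD, n = 4 each; log2 difference -1.53), and its stable one from 288 ± 26.3 to 358 ± 31.5, every mutant being higher. Tspan6, a tetraspanin and the only member on the X chromosome, had values of -1.62 and 0.14.

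**Figure D3:**
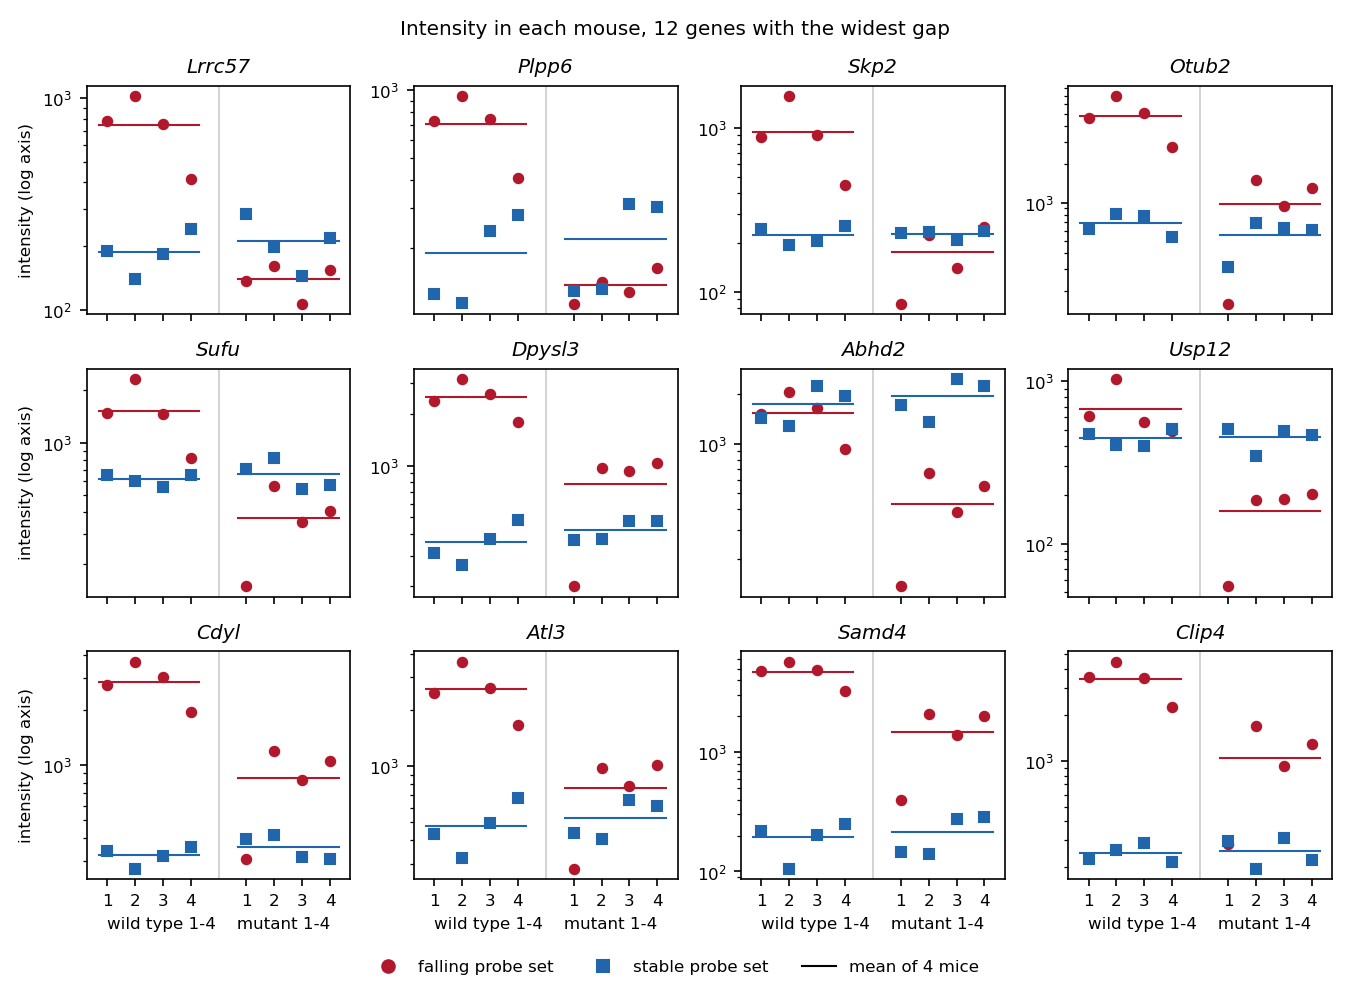
Intensity in each mouse on log axes that differ between panels, for the lowest falling (red) and the nearest-to-0 stable (blue) probe set of the 12 genes with the widest gap, with lines at the mean of 4 mice. Mutant replicate 1 is the lowest red point in 11 panels, mutant replicate 3 in Lrrc57, while the blue points overlap between genotypes in every panel; levels of different probe sets cannot be compared.

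Members of the cytoskeleton were Clip4, Dpysl3, Arhgef2 and Cep112. Clip4 carries CAP-Gly domains, which bind microtubules, and its 5 kept probe sets spanned the range from -1.91 through -1.43, -1.21 and -0.75 to 0.03. The falling one read 3534.9, 4478.8, 3499.5 and 2253.8 in wild type and 284.8, 1703.8, 922.6 and 1283.1 in mutants. The stable one read 227.8, 260, 290.6 and 217.2 in wild type and 298.9, 194.5, 312.4 and 222.8 in mutants. Mutant replicate 1 was the lowest mouse on the falling and the second highest on the stable probe set of Clip4. Dpysl3, a collapsin response mediator of the cytoskeleton, had 2 falling probe sets. The lower one read 2385.2, 3179.9, 2605.6 and 1783.2 in wild type and 198.9, 970, 931 and 1030.3 in mutants, a log2 difference of -1.86 that was -1.31 without mutant replicate 1. The brighter one had a difference of -1.53, or -0.95 without that mouse. The stable probe set read 312.9, 265.5, 375.4 and 484 in wild type and 367.7, 374.2, 474.1 and 475.9 in mutants, and the highest and the lowest mouse were both wild type.

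Arhgef2, which binds microtubules, held a falling probe set at -1.71, one between the limits at -1.36 and a stable one at -0.18. The last of these went from 311 ± 32.1 to 273 ± 34 (SD, n = 4 each). Cep112, a centrosomal protein, likewise had -1.73, -1.37 and -0.04. The Arhgef2 probe set between the limits overlapped between genotypes, with 307.4 in mutant replicate 2 and 164.4 in wild-type replicate 4. It was also called lower in replicates 3 and 4 than in 1 and 2, at -1.10 (limma, adjusted p = 0.0231). Both genes thus had 2 probe sets with a lower mutant mean and 1 that hardly differed.

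In the nucleus and in signalling, Cdyl, Tle3 and Sufu were members. Cdyl is a chromodomain protein related to the Y-linked CDY genes of primates and is known for a transcript form of the testis. On its falling probe set Cdyl read 2759, 3677.6, 3020.2 and 1941.1 in wild type and 306.9, 1188.2, 832.9 and 1054.2 in mutants, a log2 difference of -1.86 without overlap. The stable probe set nearest to 0 read 336.6, 269.3, 317.5 and 356.8 in wild type and 391.6, 414.3, 314.5 and 305 in mutants, a difference of 0.14 with overlap. The other stable probe set of Cdyl stood at 0.31, with 521 ± 43.5 in wild type and 654 ± 103 in mutants, and every mutant was above every wild type. The nearest of these values were 558.7 in mutant replicate 3 and 555.2 in wild-type replicate 4, and the difference was 0.53 in replicates 1 and 2 and 0.09 in replicates 3 and 4. Sufu, the suppressor of fused that restrains Hedgehog signalling, read 1485.2, 2319.6, 1464.1 and 819 in wild type and 149.6, 566.4, 351.2 and 405.3 in mutants on its falling probe set, a difference of -2.05. On the stable one it read 654, 603.7, 554.6 and 651.3 in wild type and 711, 821.4, 541.2 and 569 in mutants, a difference of 0.08. Mutant replicates 1 and 2 were the highest of all mice on the latter. Tle3, a corepressor of the Groucho family, had a falling probe set that went from 425 ± 108 to 136 ± 53.9 (SD, n = 4 each; log2 difference -1.57), and a stable one at 0.21.

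Both mitochondrial members had bright falling probe sets. Gpd2, the glycerol-3-phosphate dehydrogenase of mitochondria, went from 6124 ± 1650.2 to 2115 ± 819.7 (SD, n = 4 each; log2 difference -1.60), with 2 stable probe sets at 0.07 and -0.13. Akap1, which anchors protein kinase A to mitochondria, went from 2381 ± 788 to 627 ± 274 (SD, n = 4 each; log2 difference -1.95). Its stable probe set stood near the limit, at -0.33, and at -0.14 without mutant replicate 1.

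The remaining members were Lrrc57, Thegl, Cdv3 and Nol4. Lrrc57, a protein of leucine-rich repeats, had the widest gap, -2.37. Its falling probe set read 780.4, 1018.4, 754.5 and 415.6 in wild type and 136.2, 161.8, 106.8 and 153.4 in mutants, a log2 difference of -2.23, and its lowest mouse was mutant replicate 3. The stable probe set read 189.2, 140.5, 182.6 and 240.4 in wild type and 282.2, 197.9, 144.9 and 219.3 in mutants, a difference of 0.14, with the genotypes interleaved. Thegl, a relative of the spermatid gene Theg, went from 2113 ± 557 to 581 ± 139.5 (SD, n = 4 each; log2 difference -1.82), beside a stable probe set that went from 1700.4 ± 241 to 1554 ± 274. Cdv3 had a falling probe set at -1.58 and stable ones at -0.11 and -0.04. Nol4 had values of -1.58 and 0.00, and its falling value without mutant replicate 1, -0.92, was the smallest of all members.

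The choice of probe set changed what a gene appeared to do. Had each gene been read by its brightest probe set, 20 members would have shown the falling value and 9 the stable one, at most 0.31 from 0. These 9 were Abhd2, Usp12, Eif4e, Nbr1, Tle3, Thegl, Nol4, Cdv3 and Osbp2. Averaged over its kept probe sets, a member lay between -1.46 and -0.43, and 11 of 29 were at -1 or lower.

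The gap was also computed within each pair of replicates, from values that the rule had used as part of its means, so its sign there is no support. It had a median of -2.34 in replicates 1 and 2 (from -3.03 to -1.81) and of -1.35 in replicates 3 and 4 (from -2.06 to -1.03), and it was wider in replicates 1 and 2 in all 29 members. Mutant replicate 1 was the lowest mutant on 26 of the 29 falling probe sets. Without it the median gap was -1.53, from -2.49 to -1.07, and the rule found 11 of the 29 members and no other gene. Leaving out this mouse, the median falling difference within replicates 1 and 2 was -1.59, against -1.36 in replicates 3 and 4, and it was the larger fall in 24 of 29. The rule did not use the interaction of genotype with replicate pair directly. A low mutant replicate 1 makes the fall larger and the interaction more positive, so the rule can favour a positive sign on falling probe sets. Limma tested the interaction over all 17158 probe sets. It called 0 of them, with 937 (5.46%) at an unadjusted p under 0.05 and a smallest adjusted p of 0.732. The interaction of the falling probe sets had a median of 1.03 and was positive, meaning a smaller fall in replicates 3 and 4, in 29 of 29. It was positive in 271 of the 272 other probe sets that fell by 1.5 or more and in 44.2% of all kept probe sets. For the stable probe sets its median was 0.07, positive in 16 of 29. Tested on the log2 ratio of each pair of kept probe sets within a gene, 0 of 8986 ratios were called (limma, smallest adjusted p = 0.991), with 283 (3.15%) at an unadjusted p under 0.05 and 0 of the 29 member ratios among those.

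**Figure D4:**
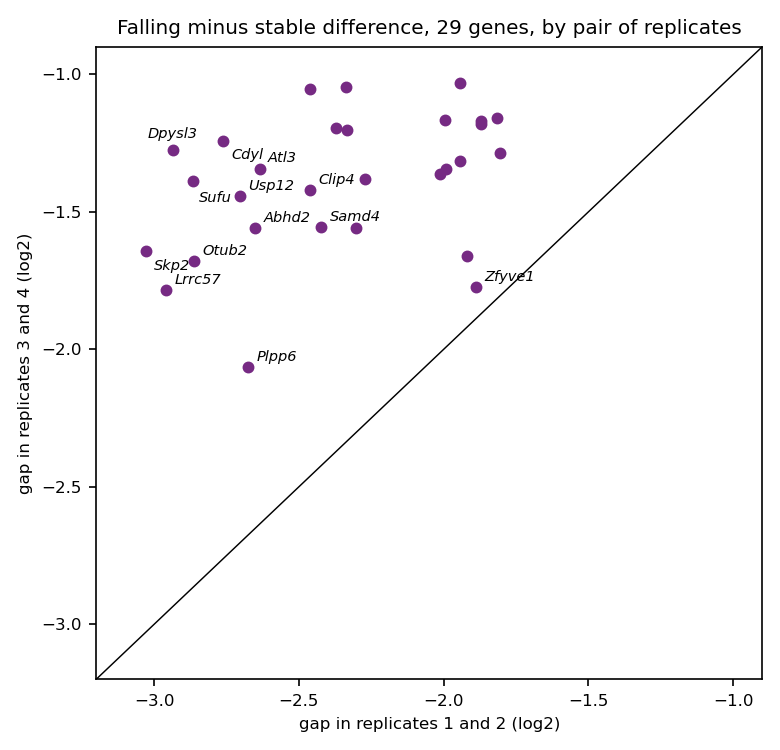
Gap of each of the 29 genes, the log2 difference of its falling minus that of its stable probe set, in replicates 1 and 2 (horizontal) against replicates 3 and 4 (vertical), each from 2 mice per genotype. All points lie above the diagonal of equal gaps, Zfyve1 nearest to it with -1.89 and -1.77; the 12 widest gaps and Zfyve1 are named.

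The order of mice within a genotype was set beside that of the spermatid markers. The rule did not use the order itself, but a very low mutant or a very high wild type widens a fall. The rule can thus favour such mice on falling probe sets, and their counts there are no independent match to the markers. The summed intensity of these markers rose in the order of replicates 4, 3, 1 and 2 in wild type and 1, 3, 4 and 2 in mutants. Single markers did not all share this order. The highest mutant was replicate 2 for Prm1, Prm2 and Tnp2 and replicate 4 for Tnp1, Acrv1 and Spaca1. Within wild type Acrv1 was lowest in replicate 1 and Spaca1 highest in replicate 3. Wild-type replicate 4 was the lowest wild type on 26 of the 29 falling probe sets (30.1% of all kept probe sets) and wild-type replicate 2 the highest on 28 (18.9%). Mutant replicate 1 was the lowest mutant on 26 (18.2%), and the highest was replicate 2 on 15 (27.9%) and replicate 4 on 13. Mutant replicate 1 was also the lowest mutant on 265 of the 272 other probe sets that were lower by 1.5 or more. The whole order of the summed markers appeared in 11 falling probe sets within wild type (7.57% of all) and in 11 within mutants (3.39%). Among the 29 stable probe sets wild-type replicate 4 was the lowest on 6, wild-type replicate 2 the highest on 2, mutant replicate 1 the lowest on 8 and mutant replicate 2 the highest on 6, and the whole order appeared in 1 within each genotype. These are descriptions with no test, and probe sets of the same mice are not independent.

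Replicates 3 and 4 differed from replicates 1 and 2 over much of the array, a split that the labels do not name and that each genotype shares. Limma called 8143 of 17158 probe sets between them (47.5%), 4004 higher (23.3%) and 4139 lower (24.1%) in replicates 3 and 4. That division was 2444 higher and 6878 lower with each array centred on its median. Of the falling probe sets 0 were called higher and 1 lower, Osbp2 at -0.85 (adjusted p = 0.017). Of the stable ones nearest to 0, 9 were called higher and 2 lower, with a median of 0.21. Plpp6 had the smallest adjusted p among member probe sets, with a stable probe set higher by 1.08 on the log2 scale (standard error 0.13, limma, adjusted p = 0.000442). Next came stable probe sets of Cdv3, Abhd2, Tspan6, Nbr1 and Eif4e, higher by 0.63, 0.62, 1.12, 0.53 and 0.53 (adjusted p from 0.00107 to 0.00543). The epididymis markers moved with the same split, and their part in these stable probe sets was not tested. Between the probe sets of 1 gene, 1934 of 8986 ratios were called (21.5%), 890 higher (9.9%) and 1044 lower (11.6%), and 1 of the 29 member ratios, that of Plpp6 at -1.29 (adjusted p = 0.0083).

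The design of the probe sets was compared as well. On this array the end of a probe set's name tells whether its probes are taken to be unique, shared by transcripts of 1 gene (_a_at) or shared more widely (_s_at and _x_at). The falling probe sets were 19 _at (65.5%), 7 _a_at (24.1%), 3 _s_at (10.3%) and 0 _x_at, and the stable ones 23 (79.3%), 4 (13.8%), 1 and 1. Over all kept probe sets of genes with 2 or more, the shares were 61.4%, 18.3%, 10.3% and 9.98%. Without _x_at and _s_at probe sets 25 of the members were found again. The platform annotation names a sequence record for each probe set, and for 25 members it gave one for both. In 12 of the 25 (48.0%) both probe sets had the same record, as did 2451 of 7247 pairs within genes (33.8%). These 12, Plpp6, Otub2, Sufu, Cdyl, Zfyve1, Ccdc91, Tle3, Tspan6, Akap1, Arhgef2, Dnaja4 and Dcun1d1, were thus read by probes designed on 1 transcript record. The members lay on 15 chromosomes, with at most 4 on any of them (chromosome 11).

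Genes known for germ cell transcript forms were compared from a list of 22, chosen with earlier results of these data known. Of these, 14 had 2 or more kept probe sets and 1, Cdyl, was a member. The list's 45 kept probe sets had a median log2 difference of -0.02, against 0.07 over all. Of the 42 that belonged to the other genes, limma called 0 without a block, against 20 of all 17158 (0.117%). At an unadjusted p under 0.05 there were 16 of the 42, against 1399 of all 17158 (8.15%). With the replicate number as a block it called 4 lower and 2 higher, against 512 of 17158 (2.98%). With the pairs of replicates as a block it called 1 lower and 2 higher, against 295 lower and 74 higher of all 17158.

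Ace came nearest to the pattern of the members. One probe set of Ace read 1185, 1721.1, 1260.9 and 810.2 in wild type and 277.1, 807, 574.4 and 637 in mutants. The groups did not overlap, though wild-type replicate 4 and mutant replicate 2 nearly met, and the log2 difference was -1.14 ± 0.34 (standard error; limma, adjusted p = 0.25, 0.0492 with the replicate block and 0.116 with the pairs of replicates as a block). The other read 172, 223.6, 281.7 and 289 in wild type and 173.5, 185.2, 311.1 and 301.3 in mutants, a difference of -0.01 (adjusted p = 0.998, and 0.975 with the block). The difference between these differences, -1.13 ± 0.37 (standard error), was not called (limma on ratios, adjusted p = 0.413, and 0.0818 with the block), so a parting of the Ace probe sets was not shown. Odf2, a protein of the outer dense fibres of the sperm tail, had 4 probe sets at -0.49, -0.43, 0.10 and 0.13. With the replicate block the first 2 fell (adjusted p = 0.0255 and 0.0391), while with the pairs as a block the second was not called (0.0463 and 0.0608), and its widest ratio, -0.61, was not called (adjusted p = 0.37, and 0.172 with the block). Hk1, a hexokinase with a form of the sperm, had probe sets at -0.74 and -0.73, of which the second fell with the replicate block (adjusted p = 0.032, and 0.13 with the pairs as a block). Sox17 rose on both of its probe sets with either block, by 0.61 and 0.67 (adjusted p = 0.0297 and 0.0313 with the replicate block, 0.0374 and 0.0293 with the pairs). Nr6a1 (-0.85 to -0.28), Crem (-0.45 to -0.05) and Sod1 (-0.02 to 0.31) had probe sets that differed by 0.57, 0.40 and 0.33, none of them called.

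For comparison, a list of 8 spermatid genes, chosen with the same knowledge and made up of nuclear proteins but for Spem1, held no member. Only 3 of the 8 had 2 or more kept probe sets, and the others could not be members under the rule. The 12 kept probe sets of these 8 genes had a median of -3.12. Without a block limma called 1 lower, against 20 of all 17158. It called 10 lower when the replicate number was the block, against 465 of all. It called 8 lower when the pairs of replicates were the block, against 295 of all. The one gene among them with probe sets far apart was Tnp1, a transition protein. Its bright probe set had a difference of -3.32 and the other, which read 280.5 to 449.3 in wild type and 170.9 to 270.9 in mutants, one of -0.67. Their ratio differed between genotypes by -2.65 ± 0.55 (standard error; limma on ratios, adjusted p = 0.146, and 0.0348 with the replicate block). Over all ratios 1 of 8986 was called without a block (0.0111%) and 113 with it (1.26%).

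The membership of single genes depended on the mice and limits used. Over 21 settings with other pseudocounts, scalings, limits or mice, Plpp6, Skp2, Sufu and Thegl were members in 20, and Zfyve1, with the fewest, in 11. Replicates 1 and 2 alone gave 54 genes, 24 of the 29 among them, and replicates 3 and 4 alone gave 7, all of them members.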

How the data were processed

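Whole testis RNA of 8 mice, 1 Affymetrix array each, was extracted with Trizol and RNeasy columns and labelled as cRNA with biotin, per the labels' protocols. The deposited table holds linear intensity values made with GCOS, per the submitters' processing notes. The GCOS version is not given in the sources used here. From the table itself, each array's mean is 500 after trimming 2% at each end, median intensities are 90.7 to 124.1, and no detection calls are given. Precision is limited by the number of arrays. Of 45101 probe sets, 64 AFFX controls, 932 with several symbols and 9160 with none were left out. Of the 34945 with 1 symbol, 34741 had an Entrez identifier found in RefSeq, and the symbol given there was used, whether or not it differed.

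Values were taken as log2(intensity + 16), a scale on which fold changes of dim probe sets are understated, and 17158 probe sets with a mean above 7.5 were kept. Tests used limma 3.58.1 (R 4.3.3), with lmFit, eBayes and its trend on intensity. They were two-sided, with Benjamini-Hochberg adjustment over all kept probe sets, or over all 8986 within-gene ratios, and a threshold of 0.05. The genotype test had no covariate, and the test of replicate pairs (3 and 4 against 1 and 2) included genotype. The tests of genotype, replicate pairs and their interaction on single probe sets, without a block, were first run on simulated data. The tests on ratios and those with a block were not. The genotype test on ratios was added after seeing the data.

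The members and all gene lists were chosen with earlier results of these data known, and the split of the replicates comes from such results, not from the labels. Every member is named. Values in every mouse are given for the 12 with the widest gap, and of the list genes those called and up to 4 more with the largest spread are named. Both genotypes share replicate numbers 1 to 4. In each of the 4 pairs of equal number the deviations from the means of the genotypes correlated (r from 0.57 to 0.695), and the numbers were used as a block. Just 3 of 8 mice correlated best with their own number. The closest mouse of the other genotype always lay on the same side of the split between replicates 1 and 2 and replicates 3 and 4. These correlations therefore do not show a pairing by number beyond that split, and the labels name none. No 2 arrays held the same values. Each mouse is a separate sample in the labels. Alternatives covered pseudocounts of 1 and 64, quantile normalization, median centring, other limits, no trend, robust eBayes, the replicate block and leaving out each mouse. Promoter windows and chromosomes came from RefSeq tables of GRCm38.p6, matched by Entrez identifier. Figures were drawn with matplotlib 3.10.9.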

Additional observations from a re-analysis of the deposited data

Results flagged for a closer look

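Among the 12 members given by mouse, 48 groups of 4 mice were examined for a mouse apart from the other 3 of its group, and 3 groups held one, where chance gives about 1 in 20. All 3 were mutant replicate 1 reading low, which the rule can favour on a falling probe set. The falling probe set of Dpysl3 read 198.9 in it, with 0.94 of the group's range on the log2 scale lying between this mouse and the next. The falling probe set of Usp12 read 54.5, with 0.93 of the range, and the stable probe set of Otub2 read 309.3, with 0.84. The summed spermatid markers were lowest in the same mouse, and their part in these values was not tested.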

How the results depend on the processing

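The rule fixes the sign of the gap, and median centring cannot change a gap within a gene, so that its sign did not turn in 406 recomputed values (29 genes, 14 alternatives each) is no sign of stability. Of these values 4 moved by more than the spread between mice. Sufu had a gap of -2.87 in replicates 1 and 2 alone and -1.39 in replicates 3 and 4 alone, and Tle3 -2.37 and -1.19. The median gap ran from -2.34 (replicates 1 and 2 alone) to -1.35 (replicates 3 and 4 alone), and from -2.07 to -1.53 as single mice were left out. The number of members was 44 with the limit on the mean at 6.5 and 15 at 8.5, 81 with a fall of 1.0 and 6 with a fall of 2.0, 54 in replicates 1 and 2 alone and 7 in replicates 3 and 4 alone, and from 11 to 38 as single mice were left out. It was 11 without mutant replicate 1, 22 without wild-type replicate 2 and 38 without mutant replicate 4. With a pseudocount of 64 the count stayed at 29, and 24 of these genes were the same.

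Over all probe sets, the genotype test called 20 without a block, 512 with the replicate block (465 lower, 47 higher), 369 with the pairs of replicates as a block, 49 with a pseudocount of 64 and 0 with a limit of 8.5, and from 0 to 150 as single mice were left out. Leaving out wild-type replicate 1, 2 or 3, or else mutant replicate 2, 3 or 4, gave 0 calls, where 947 to 1625 had an unadjusted p under 0.05, and the count was 40 without wild-type replicate 4 and 150 without mutant replicate 1. The interaction count ranged from 0 to 345 as single mice were left out, with 345 without mutant replicate 2. It was 0 with the replicate block. On ratios it ranged from 0 to 3, with 3 without wild-type replicate 3. The genotype test on ratios, called 1 without a block, gave 113 with the replicate block, 3 with quantile normalization, 0 with no limit on the mean, 3 with a limit of 8.5, 0 with no trend and from 0 to 39 as single mice were left out. The test of replicates 3 and 4 against 1 and 2 on ratios called 1934, and 3785 with no limit on the mean, 1160 with a limit of 8.5, and from 1031 to 2132 without single mice. Leaving out a mouse makes the pairs of replicates uneven between genotypes. The causes were not tested.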
